A study of Mus musculus with 2 samples.

Results

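The nuclei described here are astrocytes of the mouse hippocampus in which transcripts of Cd44, A2m, Aldh1a1 and Angpt1 were counted at least 3 times together. They were chosen by measured values. Nuclei were kept from 600 UMIs (unique molecular identifiers, each standing for 1 captured transcript) and 300 genes upwards, with mitochondrial UMIs of 5% or less. A nucleus counted as an astrocyte when Gpc5, Slc1a3, Rfx4 and Aqp4 summed to at least 30 UMIs per 10000 and the genes of oligodendrocytes, microglia, ependymal cells and oligodendrocyte precursors stayed under set limits (per 10000, St18 and Prr5l under 10, and Inpp5d with Csf1r, Dnah12 with Ccdc180, and Pdgfra with Cspg4 each under 5). By this rule 1499 of 20594 nuclei belonged to the class, 718 of 10466 in PS19 and 781 of 10128 in PZKO, and 474 and 550 further astrocytes fell outside it. Single-nucleus RNA sequencing was run on 1 library per genotype. PS19 denotes PS19 +/- Zbp1+/+ males and PZKO denotes PS19 +/- Zbp1-/- males, both 9 months of age, and both carry the human Tau P301S transgene under the mouse prion promoter, so that neither library shows a brain without tau pathology. The comparison addresses how loss of the nucleic acid sensor ZBP1 alters tauopathy. Each library pooled the hippocampi of 5 males, although the same methods also state that animals were handled one by one, and no animal can be followed in the counts. With 1 library per genotype, nuclei are not replicates, so no p-value is given between genotypes, and every interval below is a 95% interval that covers counting error only.

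CD44 is the cell surface receptor for hyaluronan, and in the brain it marks astrocytes of white matter, of the pial surface and of scars. A2M traps proteases, ALDH1A1 oxidises retinaldehyde to retinoic acid, and ANGPT1 is a ligand of the endothelial receptor TEK. Fibrous astrocytes carry long filament-rich processes built of GFAP and vimentin, whereas protoplasmic astrocytes of the neuropil are rich in transporters that clear glutamate and GABA. Both kinds can turn reactive when tissue is damaged.

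The class nuclei were deep, with a median of 7844 UMIs in PS19 and 10525 in PZKO, against 5381.5 and 7235.5 in the other astrocytes. The libraries held 116488513 and 171167884 UMIs in all, so PZKO was the deeper library. Because the rule counts raw UMIs, a deeper nucleus passes it more easily. Values at an equal depth of 3000 UMIs per nucleus, obtained by random thinning, are given for some of the results that depth can enter. The libraries shared 47 barcodes, of which 5 PS19 and 2 PZKO barcodes lay in the class. Zbp1 itself (chr2:173206612-173218923, minus strand) gave 13 UMIs in the PS19 class and 2 in the PZKO class, a log2 ratio of PZKO to PS19 of -3.27 (-6.46 to -1.12). In microglia, where it was more frequent, Zbp1 stood at 13.6 CPM (UMIs of the gene per 1000000 UMIs of those nuclei) in PS19 and 5.51 CPM in PZKO. Which part of the gene the knockout removes is not given in the sources used here, so UMIs left in PZKO do not test the label.

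The 4 genes of the rule, which fixed the class and are therefore no finding in it, did not all mark the same nuclei. Cd44 (chr2:102811141-102901665, minus strand, mm10) had a UMI in 359 class nuclei of each library. A2m (chr6:121635376-121679227, plus strand) had one in 337 PS19 (46.9%) and 282 PZKO nuclei (36.1%). Aldh1a1 (chr19:20492715-20643465, plus strand) and Angpt1 (chr15:42424723-42676977, minus strand) were more widespread. Aldh1a1 was found in 78.6% of PS19 and 79.3% of PZKO class nuclei. Angpt1 was found in 81.8% and 83.4% of them. The name of the class thus leads with its less frequent genes: 67.7% of the PS19 class nuclei (64.1 to 71.1%) and 58.8% of the PZKO class nuclei (55.2 to 62.2%) held any UMI of Cd44 or A2m. Both genes were found together in 29.2% and 23.3%, and neither was found in 32.3% and 41.2%. All 4 genes were found in 19.5% of the PS19 and 16.5% of the PZKO class nuclei, and a single one of them in 13.8% and 18.3%. Thinned to 3000 UMIs, Cd44 had a UMI in 30.2% and 26.8% of class nuclei against 2.82% and 2.69% of oligodendrocytes, which gives the level of free RNA or of transcription outside astrocytes. For A2m the thinned shares were 28.9% and 18.3% against 1.92% and 1.27% in oligodendrocytes. The other astrocytes are held by the rule to at most 2 UMIs of the 4 genes together, so their shares are given as a description only, at 2.58% and 2.64% for Cd44, 2.32% and 2.23% for A2m, 18.3% and 14.0% for Aldh1a1, and 14.4% and 11.4% for Angpt1. In oligodendrocytes Aldh1a1 had a UMI in 4.45% and 4.06% and Angpt1 in 2.25% and 1.85%.

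The cut at 3 UMIs divided a continuum. Astrocytes with exactly 2 UMIs of the 4 genes (117 in PS19, 115 in PZKO) had Gfap at 638 and 382 CPM, and those with exactly 3 UMIs (89 and 82) had it at 688 and 497 CPM. At the other threshold, 17 PS19 and 25 PZKO class nuclei had an astrocyte sum of 30 to 35 per 10000, while 27 and 20 nuclei with at least 3 class UMIs but a sum of 25 to 30 lay just outside. Those 17 PS19 nuclei had Gfap at 2096 CPM and Myoc at 386 CPM, above the 1288 and 44.8 CPM of the PS19 class as a whole. The corresponding 25 PZKO nuclei had 516 and 75.4 CPM.

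Among all astrocytes the class made up 60.2% in PS19 (718 of 1192, 57.4 to 63.0%) and 58.7% in PZKO (781 of 1331, 56.0 to 61.3%), intervals that overlap. At equal depth the shares lay apart: after thinning, 39.9% of PS19 astrocytes (439 of 1099, 37.0 to 42.9%) but 31.8% of PZKO astrocytes (406 of 1276, 29.3 to 34.5%) passed the same cut. Thinning left out 19 class and 86 other nuclei in PS19, and 5 and 57 in PZKO, that were too shallow. The whole rule, the choice of astrocytes included, was applied anew to the thinned nuclei, so that some entered as astrocytes only then. With a cut of 5 UMIs per 10000 the shares were 56.0% (53.2 to 58.9%) and 48.7% (46.0 to 51.4%). Of all nuclei that passed the filter, the class made up 6.86% in PS19 and 7.71% in PZKO. In the pooled tissue, fewer nuclei of a kind and fewer transcripts per nucleus cannot be told apart by such a cut.

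**Figure D1:**
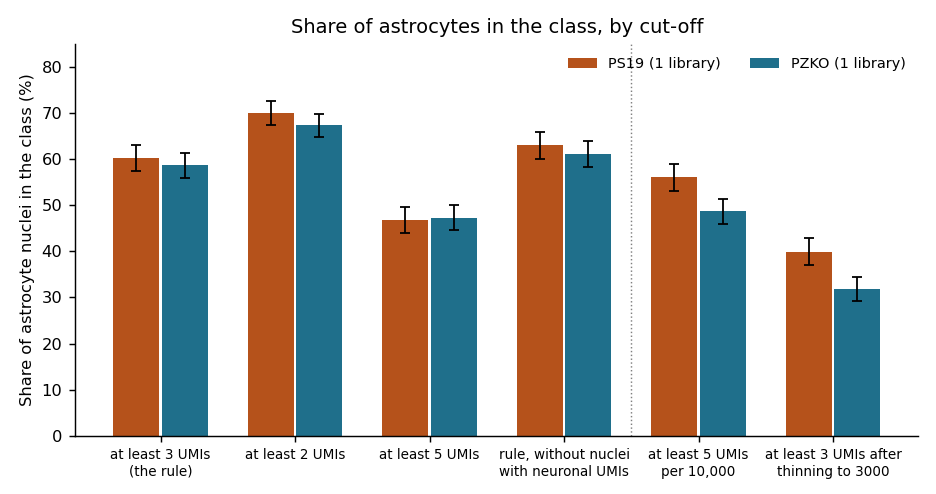
Share of astrocyte nuclei that belong to the class (y axis, percent) in the PS19 and PZKO libraries under 6 cut-offs, with exact Clopper-Pearson 95% intervals (counting error only). With raw UMI cut-offs (left of the dotted line) the libraries lie close together, at 60.2% and 58.7% under the rule, and at matched depth (right) PZKO is lower, at 31.8% against 39.9% after thinning.

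The gap at matched depth went with the genes of the rule to different degrees. Over all astrocytes, with no cut applied, A2m was 172 CPM in PS19 and 80.7 CPM in PZKO, a log2 ratio of PZKO to PS19 of -1.10 (-1.21 to -0.98). Cd44 was 136 CPM and 113 CPM, a log2 ratio of -0.27 (-0.38 to -0.16). Aldh1a1 differed by -0.20 (-0.27 to -0.13) and Angpt1 by -0.16 (-0.23 to -0.09) on the same scale. A2m was therefore the only one of the 4 genes past 2-fold. Aqp4, the water channel of perivascular endfeet that the rule used to find astrocytes, differed by -0.44 (-0.49 to -0.39). A2m was also lower in PZKO outside astrocytes, at -1.52 in oligodendrocytes and -0.88 in the remaining nuclei, while Cd44 was at -0.05 and 0.22 there.

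Class nuclei resembled each other in genes that the rule did not use. With the genes of the rule removed, 76.4% of the 20 nearest neighbours of a PS19 class nucleus were class nuclei on average, against 47.6% for the other astrocytes (class share 60.2%). In PZKO these values were 75.9% and 43.5% (58.7%). At 3000 UMIs per nucleus, where depth no longer differs, they were 56.7% and 26.3% in PS19 (class share 39.9%) and 49.6% and 20.02% in PZKO (31.8%). Class nuclei thus lay nearer to each other than their share in both libraries and at both depths, with some of their neighbours outside the class.

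Transcripts of fibrous and reactive astrocytes were higher in the class than in the other astrocytes, with 5 of 12 fibrous and 7 of 8 measured pan-reactive genes past 2-fold in both libraries. Of the 15 genes of transmitter uptake and potassium buffering, 1 was past 2-fold lower in both, the GABA receptor subunit Gabbr2. Since the class was selected on the same nuclei, these contrasts are descriptions. Of 9920 genes for which each library counted 100 UMIs or more in astrocytes, 178 were more than 2-fold higher in the class in both libraries (1.79%) and 213 were lower (2.15%), and the median log2 ratio of class to other astrocytes over all genes was 0.03 in PS19 and 0.06 in PZKO. Redrawn at 3000 UMIs per nucleus the counts were 45 and 99, with the minimum of 100 UMIs kept, so that fewer genes could be called. When nuclei with neuronal transcripts were left out of both sets the counts were 171 and 27. Over all 9920 genes, 4017 were above 0 in both libraries and 2828 below. The minimum of 100 UMIs sums class and other astrocytes, so a scarce gene can pass it through the set where it is higher. Nuclei with neuronal transcripts, over 15 UMIs per 10000 of Syt1, Snap25, Rbfox3 and Grin2a, made up 12.7% of the other astrocytes in PS19 and 14.0% in PZKO, but 1.81% and 4.87% of the class. An alternative without them, chosen after the counts had been seen, is given beside some of the results it alters.

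**Figure D2:**
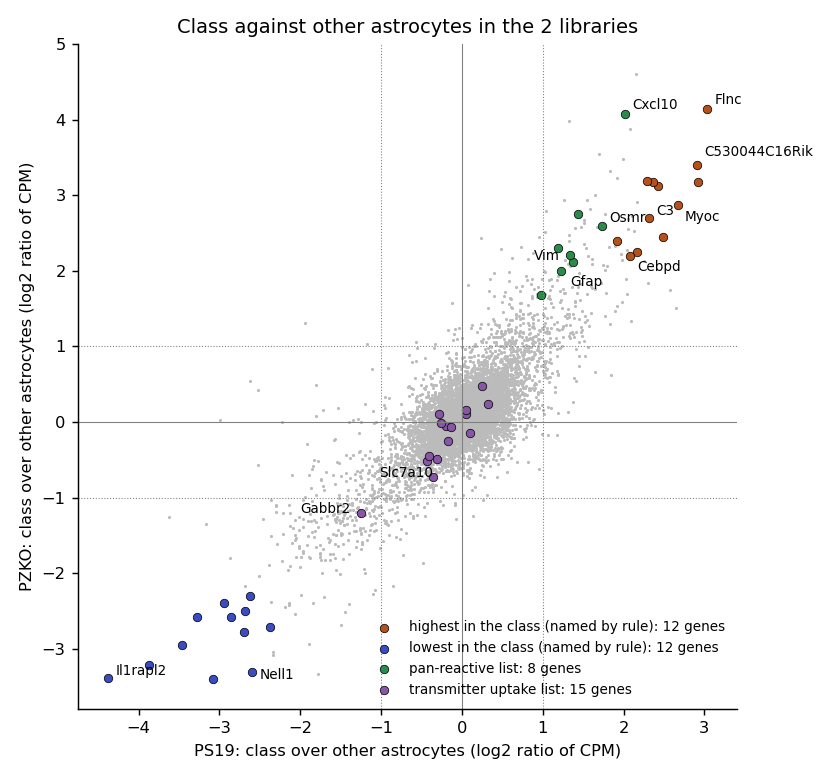
Log2 ratio of CPM, class over other astrocytes, in PS19 (x axis) and PZKO (y axis) for 9920 genes, each point 1 gene, with dotted lines at 2-fold. The 12 genes highest in the class lie past 2-fold in both libraries, the 8 measured pan-reactive genes lie to the upper right, with 7 past 2-fold in both, and the 15 genes of transmitter uptake lie around 0 apart from Gabbr2.

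The 12 genes that stood out most, ranked by the bound of the interval closest to 0 in the weaker library, were C530044C16Rik, Plscr2, Flnc, Myoc, Gpnmb, Ccdc3, Asap3, Chl1, P4ha3, Cebpd, C3 and Fcgr2b. All 12 kept a ratio above 2-fold in both libraries after thinning and without the nuclei holding neuronal transcripts. No UMI minimum was set for these ratios. After thinning the scarcest genes rest on few UMIs, such as Flnc, at 0.785 CPM in the other PZKO astrocytes before thinning. C530044C16Rik (chr6:50776115-50815033), an uncharacterised transcript, was 125 CPM in the PS19 class and 16.6 CPM in the other PS19 astrocytes, and 95 and 9.03 CPM in PZKO. It was rare in other cells, with a UMI in 18.9% and 18.0% of thinned class nuclei against 0.282% and 0.0528% of oligodendrocytes. Myoc (chr1:162639155-162649693), which encodes the secreted glycoprotein myocilin found in astrocytes at the pial and optic nerve surface, was 44.8 CPM in the PS19 class and 7.05 CPM outside it. In PZKO it was 76.4 CPM and 10.4 CPM. Myoc came from few nuclei, 49 in PS19 and 92 in PZKO, a small fraction of the class. Chl1 (chr6:103510586-103750211), a neural adhesion molecule of the L1 family, was by contrast found in 463 and 483 class nuclei, at 491 CPM against 130 CPM in PS19 and 459 CPM against 87.1 CPM in PZKO. The actin crosslinker Flnc (filamin C) was 23.1 against 2.82 CPM in PS19 and 13.8 against 0.785 CPM in PZKO, but had a UMI in as many thinned oligodendrocytes (3.72% and 2.11%) as thinned class nuclei (3.43% and 2.84%). C3, the central complement component, was 33.5 against 6.70 CPM in PS19 and 12.7 against 1.96 CPM in PZKO. Cebpd, a transcription factor of the acute phase response, was 92.4 against 21.9 CPM and 53.9 against 11.8 CPM. Gpnmb, a glycoprotein better known from phagocytes, was 70.3 against 13.0 CPM in PS19 and 44.5 against 5.10 CPM in PZKO. The microglial list was at 112 CPM summed in the PS19 class and 121 CPM in the other PS19 astrocytes, and 83.2 and 73.4 CPM in PZKO over 5 genes. The remaining 5 (Plscr2, Ccdc3, Asap3, P4ha3 and Fcgr2b) had log2 ratios of 2.17 to 2.92 in PS19 and 2.26 to 3.19 in PZKO.

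The fibrous and subpial genes were higher as a group: 5 of 12 were past 2-fold in both libraries (1.79% over all genes) and 11 of 12 were above 0 in both (4017 of 9920 over all genes), with a median log2 ratio of 0.94 in PS19 and 1.29 in PZKO. Gfap, the intermediate filament of fibrous and reactive astrocytes, was 1288 CPM in the PS19 class and 552 CPM outside it, a log2 ratio of 1.22 (1.15 to 1.30). In PZKO it was 913 and 229 CPM, a log2 ratio of 2.0 (1.91 to 2.09). With class and other astrocytes redrawn after thinning, these ratios were 0.96 and 1.43. The partner filament Vim differed by 1.34 in PS19 and 2.21 in PZKO, and the BMP target Id3 by 1.40 and 1.60. Thbs4, a matrix thrombospondin on the same list, was the exception at -0.12 and 0.07.

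Reactive genes were higher in the class by still larger medians. Of the 8 measured pan-reactive genes, which share Gfap and Vim with the fibrous list, 7 were past 2-fold in both libraries (1.79% over all genes), with medians of 1.36 and 2.26. Osmr, the oncostatin M receptor, was 192 against 57.8 CPM in PS19 and 169 against 27.9 CPM in PZKO. Serpina3n, a secreted serine protease inhibitor, was 136 against 52.5 CPM and 65.0 against 14.9 CPM. Cp, which oxidises iron, stood just short in PS19 at 0.98 and was 1.69 in PZKO. Of the A1 list, 5 of 8 were past 2-fold in both libraries (medians 1.2 and 1.99), namely C3, Serping1, Ggta1, Iigp1 and Gbp2. The A2 list gave 3 measured genes of 12, Clcf1, S100a10 and Cd109, all past 2-fold in both libraries (medians 1.59 and 2.83). Scarce genes such as these can reach the UMI minimum through the class alone. Cd109, for example, had 183 UMIs in the PS19 class and 28 in the other PS19 astrocytes. The A2 count therefore describes the genes that passed and not the list. The list of disease-associated astrocytes had medians of 0.78 and 1.27, with 5 of 12 past 2-fold in both. Its secreted factors hardly differed, with Apoe at 0.20 and 0.33, Clu at 0.10 and 0.41, and Cst3 at -0.13 and -0.12. Of the 15 astrocyte genes that the study named from these same libraries, 7 were past 2-fold in both (medians 0.61 and 1.2), and of 6 measured complement genes 2 were, C3 and Serping1, with C4b at 0.48 and 1.2.

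**Figure D3:**
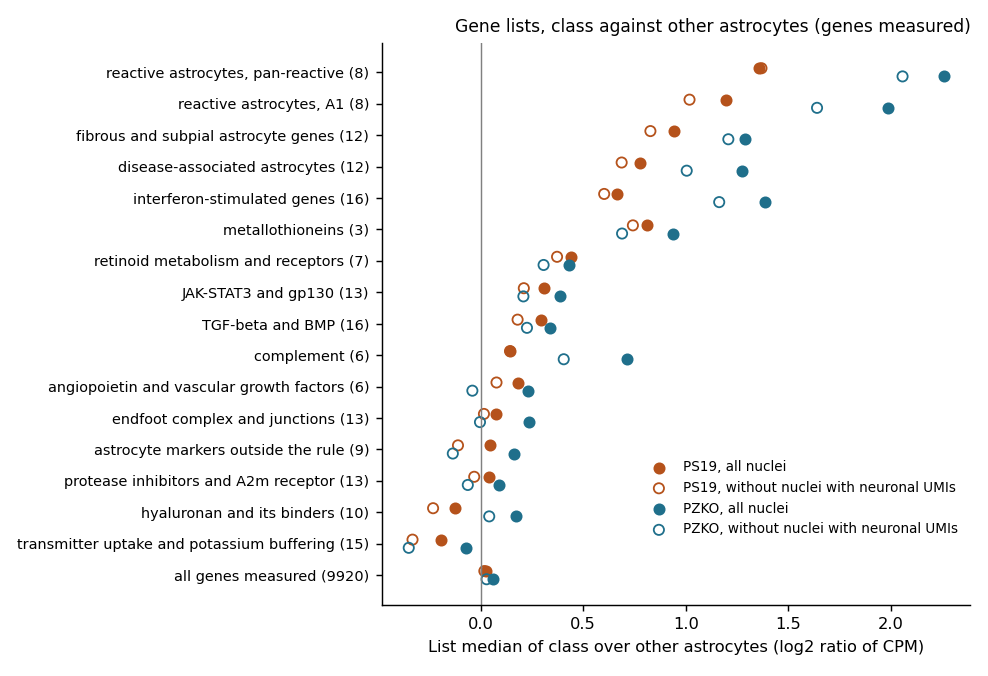
Median log2 ratio of CPM, class over other astrocytes (x axis), for 16 gene lists and all genes measured (number of genes measured in parentheses), in PS19 and PZKO, with all nuclei (filled) and without nuclei holding neuronal UMIs (open). The pan-reactive list is at 1.36 and 2.26, farthest to the right of the 16 lists drawn (the A2 list, with 3 genes, is not drawn), and transmitter uptake is at -0.19 and -0.07.

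Around the receptor OSMR, the JAK-STAT3 list was higher at a few points. Socs3, the feedback inhibitor that STAT3 induces, was past 2-fold in both libraries (1.61 and 2.09), and Stat3 itself was at 0.72 and 1.19. In all, 2 of 13 measured genes were past 2-fold higher in both (medians 0.31 and 0.39), beside 178 of 9920 over all genes (1.79%). Of 16 measured TGF-beta and BMP genes, 0 were past 2-fold in both libraries in either direction (medians 0.29 and 0.34), with Tgfbr2 nearest at 0.93 and 1.43. Of the 3 metallothioneins, Mt2 stood at 1.09 and 0.99 and Mt1 at 0.81 and 0.94, and Mt3, the brain form, at 0.27 and 0.33.

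Interferon-stimulated genes were above 0 in both libraries for 15 of 16 measured members (4017 of 9920 over all genes), with medians of 0.66 in PS19 and 1.39 in PZKO, and 4 were past 2-fold in both (1.79% over all genes). Cxcl10, a chemokine for T cells, was 52.6 against 13.0 CPM in PS19 and 46.2 against 2.75 CPM in PZKO. It rested on few nuclei, as 5 nuclei held 57.7% of its PS19 and 53.7% of its PZKO class UMIs. The immunity GTPase Iigp1 was 33.6 against 13.4 CPM and 43.4 against 2.75 CPM. Ifit1, an RNA binder, stood at 0.99 and 1.89, and Oasl2, of the oligoadenylate synthetase family, at 0.79 and 1.93. Redrawn after thinning, Cxcl10 and Iigp1 stood at 0.71 and 0.17 in PS19 but at 3.39 and 2.61 in PZKO. Interferon-stimulated genes are bound at their promoters at an element whose core is GAAA, 2 bases of any kind, and GAAA again. This core, on either strand, lay within 250 bases before the start of 6 of the 13 measured members with a promoter in the RefSeq table (46.2%: Ifit1, Ifit3, Rsad2, Stat2, Bst2 and Cxcl10), against 3.46% of 27025 genes. A match of letters is a description and not a site of binding in these nuclei. The 250 bases before the start of 3 of these genes are shown (RefSeq, GRCm38.p6, written 5′ to 3′ on the strand of the gene), with matches in capitals, because they show the element singly, before Cxcl10 (chr5:92348890-92349139, minus strand), and as a pair on the opposite strand, before Ifit1 (chr19:34640639-34640888, plus strand) and Ifit3 (chr19:34583279-34583528, plus strand).
Cxcl10: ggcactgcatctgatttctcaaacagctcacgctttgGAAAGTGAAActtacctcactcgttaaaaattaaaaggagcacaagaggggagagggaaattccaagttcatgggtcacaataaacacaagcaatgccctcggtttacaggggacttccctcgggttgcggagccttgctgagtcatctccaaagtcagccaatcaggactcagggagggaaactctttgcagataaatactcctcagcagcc
Ifit1: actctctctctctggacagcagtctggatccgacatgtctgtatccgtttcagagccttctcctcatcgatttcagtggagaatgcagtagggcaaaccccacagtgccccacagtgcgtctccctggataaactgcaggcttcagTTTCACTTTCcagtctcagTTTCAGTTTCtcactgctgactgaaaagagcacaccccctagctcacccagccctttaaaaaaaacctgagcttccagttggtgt
Ifit3: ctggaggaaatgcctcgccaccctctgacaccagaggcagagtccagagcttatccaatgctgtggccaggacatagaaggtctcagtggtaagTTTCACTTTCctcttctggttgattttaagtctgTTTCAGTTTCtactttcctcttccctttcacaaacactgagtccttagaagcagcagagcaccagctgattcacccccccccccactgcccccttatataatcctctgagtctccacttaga

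Few genes of the pathways around the 4 genes of the rule were past 2-fold, except among protease inhibitors. Over all genes, 1.79% were higher and 2.15% lower. Among hyaluronan synthases, hyaluronidases, link proteins and lecticans, 0 of 10 measured genes were past 2-fold in both libraries in either direction (medians -0.13 and 0.17). The brain lectican Bcan, for example, was at -0.07 and -0.05. Among protease inhibitors and the A2M receptor, 2 of 13 were higher (Serpina3n and Serping1) and 2 were lower, with Lrp1, the A2M receptor, at 0.05 and 0.09. The 2 lower genes, Spock1 and Spock3, stood at -0.42 and -0.06 and at 0.19 and -0.03 without nuclei with neuronal transcripts. Of 7 measured genes of retinoid metabolism and its receptors, 0 were past 2-fold in both libraries, but 6 were above 0 in both (4017 of 9920 over all genes), with medians of 0.44 and 0.43, Rdh10, which makes the substrate of ALDH1A1, standing at 0.55 and 0.43 and Rarb at 0.22 and 0.72. Of 6 measured vascular growth factors, 0 were past 2-fold in both, with Vegfa at -0.08 and -0.23. Tek, the receptor of ANGPT1, gave 27 and 39 UMIs in the whole class.

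Astrocyte identity was shared. The 9 markers outside the rule had medians of 0.04 and 0.16, with 0 past 2-fold in both libraries. Without nuclei with neuronal transcripts their medians were -0.11 and -0.14. The endfoot complex had medians of 0.07 and 0.24 over 13 genes, and of 0.0152 and -0.0041 without those nuclei. The list of 15 genes for transmitter uptake and potassium buffering lay slightly lower, at medians of -0.19 and -0.07 (-0.33 and -0.35 without nuclei with neuronal transcripts). Slc1a2, the main glutamate transporter, was 6250 against 7140 CPM in PS19 and 6623 against 6859 CPM in PZKO. Slc7a10, the transporter of serine and other small neutral amino acids, stood at -0.31 (-0.46 to -0.16) and -0.49 (-0.60 to -0.37), and Grm3, a metabotropic glutamate receptor, at -0.43 and -0.52. Gabbr2, a GABA-B receptor subunit, was past 2-fold in both libraries (-1.24 and -1.20) and stayed lower without nuclei with neuronal transcripts (-0.97 and -1.14). The 16 astrocyte transcription factors had medians of 0.05 and 0.12 (-0.10 and -0.10 without nuclei with neuronal transcripts), with Glis3 the highest at 0.90 and 1.05.

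The genes lowest in the class depended on the nuclei that held neuronal transcripts. The 12 lowest were Il1rapl2, Nwd2, Epha3, Hs6st3, Cntn5, Pld5, Tafa2, Cntn3, Lingo2, Nell1, 9530059O14Rik and Sorcs3. Il1rapl2, a synaptic adhesion molecule, was 10.1 against 209 CPM in PS19 and 52.4 against 549 CPM in PZKO, a log2 ratio of -4.37 and -3.39. Without nuclei holding neuronal transcripts it stood at -5.44 in PS19 and at 1.61 in PZKO, and 7 of the 12 changed sign in at least 1 library. Excitatory neuron markers summed to 262 CPM in the PS19 class and 445 CPM in the other PS19 astrocytes, and 299 and 588 CPM in PZKO, with Camk2a the most abundant and 0 of 5 markers at 0. When the ranking was repeated without those nuclei, Nxph1, Dscam, Opcml, Dscaml1, Pcdh15, Unc13c, Car8, Lhfpl3, St6galnac5, March1, C030005K06Rik and C130073E24Rik were lowest. With all nuclei kept, Unc13c, a priming factor for secretory vesicles, was 68.7 against 187 CPM in PS19 and 54.0 against 308 CPM in PZKO. Car8, which binds the inositol trisphosphate receptor, was 9.10 against 26.4 CPM and 10.3 against 24.7 CPM, also with all nuclei. Unc13c and Car8 were scarce in oligodendrocytes (11.2 and 0.482 CPM in PS19), whereas Lhfpl3 is a marker of precursors. The precursor markers summed to 176 CPM in the PS19 class and 527 CPM outside it, and 276 and 534 CPM in PZKO, led by Tnr and Lhfpl3, although the astrocyte rule limits Pdgfra and Cspg4. Their part in the lower genes was not tested.

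Graded by UMIs of the 4 rule genes at matched depth, Gfap and Vim were higher at each step, while Slc1a2, Slc7a10 and Slc6a11 were lower at the last step than at the first, though not by a steady course in each library. In PS19, Gfap went from 542 CPM in the 307 nuclei with no class UMI per 3000 to 1635 CPM in the 229 nuclei with 5 or more, and in PZKO from 259 CPM (424 nuclei) to 1665 CPM (207 nuclei). Vim went from 83.6 to 381 CPM in PS19 and from 21.2 to 190 CPM in PZKO. Slc7a10 was 216, 212, 259, 163 and 119 CPM over the 5 steps in PS19, and 237 CPM at the first and 98.2 CPM at the last in PZKO. Slc6a11 was 230 CPM at the first and 146 CPM at the last step in PS19, and 284, 241, 373, 240 and 199.7 CPM over the steps in PZKO. Slc1a2 was 7222 CPM at 0 and 5355 CPM at 5 or more in PS19, and 7631 and 6068 CPM in PZKO with 8466 CPM at 1 class UMI. The inward rectifier potassium channel Kcnj10 was 138 CPM at the first step and 128 CPM at the last in PS19, and 125 and 108 CPM in PZKO, with overlapping intervals.

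**Figure D4:**
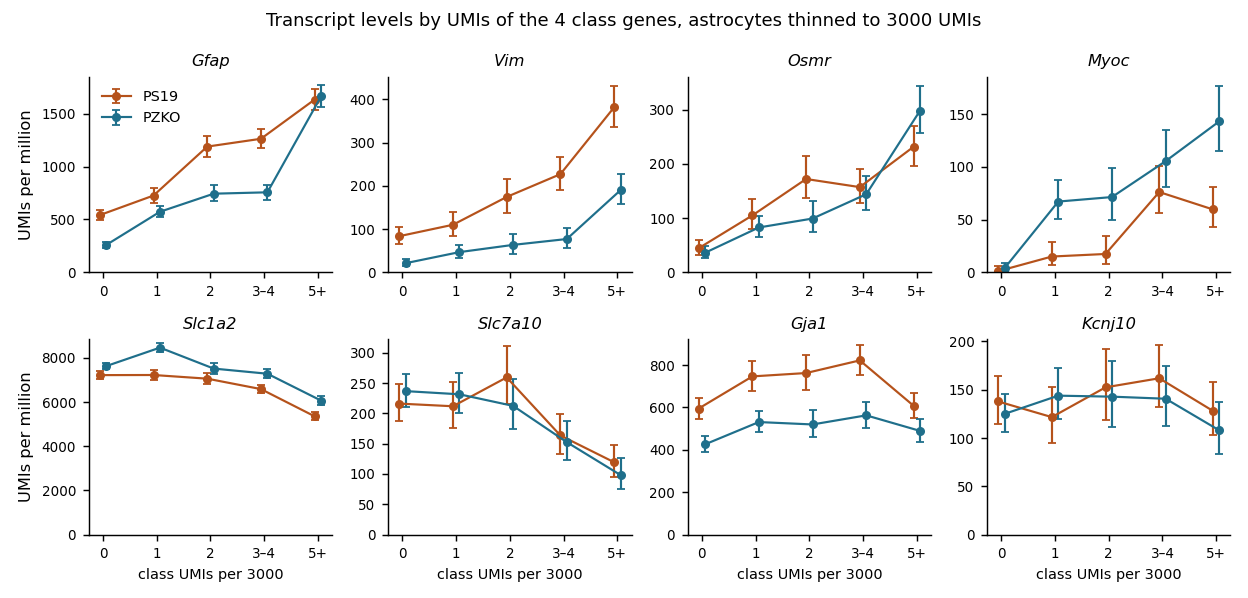
CPM with exact 95% Poisson intervals (y axis) of 8 genes in astrocytes thinned to 3000 UMIs, grouped by how many of those UMIs came from Cd44, A2m, Aldh1a1 and Angpt1 (x axis), in PS19 and PZKO. Gfap rises from 542 to 1635 CPM in PS19 and from 259 to 1665 CPM in PZKO, Slc7a10 is 216 CPM at the first step and 119 CPM at the last in PS19, and 237 and 98.2 CPM in PZKO, and the intervals of Kcnj10 overlap at both ends.

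Within the class, nuclei with a UMI of Cd44 or A2m (486 in PS19, 459 in PZKO) were set beside nuclei that entered by Aldh1a1 or Angpt1 alone (232 and 322), a split that uses genes of the rule and is given as a description. Gfap was 1513 against 748 CPM in PS19 and 1213 against 438 CPM in PZKO. C3 was 44.1 against 7.75 CPM and 19.5 against 1.99 CPM, so that nuclei without Cd44 or A2m lay at the level of the other astrocytes (6.70 and 1.96 CPM). Cxcl10 was 67.1 against 17.7 CPM in PS19 and 54.1 against 33.8 CPM in PZKO, where the other astrocytes had 2.75 CPM. The GABA transporter Slc6a11 was lower with Cd44 or A2m, 136 against 289 CPM in PS19 and 190 against 292 CPM in PZKO. The genes that led the Cd44 or A2m nuclei, picked on these same nuclei, were Gldn (39.1 against 3.87 CPM in PS19, 34.4 against 2.27 CPM in PZKO), the NADPH oxidase Nox4, C3, Anxa2 and Ccdc3. The nuclei with Cd44 or A2m were also deeper, with medians of 8348 against 6970.5 UMIs in PS19 and 11185 against 9320.5 in PZKO, and the part of depth was not tested.

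Between genotypes, the median of the disease-associated list was lower in the PZKO class than in the PS19 class, while the pan-reactive and A1 lists differed less. The pan-reactive median turned with depth, at -0.32 with all nuclei and 0.11 after thinning, with 2 of 8 genes past 2-fold lower. Of 10 A1 genes 1 was past 2-fold lower (median -0.56). Of 5 A2 genes 5 were below 0 and 1 was past 2-fold lower (median -0.58). After thinning, the 3 A2 genes also measured in the other astrocytes had a class median of -0.77. Of 11443 genes with 100 or more class UMIs in the sum of the libraries, 254 were more than 2-fold higher in PZKO (2.22%) and 75 were lower (0.655%), and the median log2 ratio was -0.04. The excess of higher genes was lost without nuclei holding neuronal transcripts, with 60 higher and 61 lower among genes that still had 100 UMIs there. After thinning, 18 were higher and 23 lower. The minimum of 100 UMIs was kept for the fewer UMIs left by thinning, so fewer genes could be called in either direction. Over all genes, 6336 of 11443 were below 0. The study named 15 astrocyte genes outside the rule from these same libraries, Gja1 as a marker and the others as lower in PZKO astrocytes. They are not independent evidence of direction. In the class 15 were below 0 and 6 past 2-fold, with a median of -0.88. The study itself compared its whole astrocyte cluster, after correction for free RNA. Among 12 disease-associated genes, 12 were below 0 and 4 past 2-fold (median -0.83, and -0.62 after thinning). The same lists had medians of -0.90 and -0.88 in oligodendrocytes, close to those of the class.

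Vim was among the 10 lowest genes, at 260 CPM in PS19 and 99.0 CPM in PZKO, a log2 ratio of -1.39 (-1.51 to -1.28). In oligodendrocytes Vim was lower to a similar degree, at -1.27. Cst3 (cystatin C) was 1447 and 615 CPM, a log2 ratio of -1.24, beside -1.02 in oligodendrocytes. Clusterin (Clu), an extracellular chaperone, was 2122 and 940 CPM (-1.18), beside -1.0. Apoe, which is not among the 10, was 1640 and 823 CPM (-0.995), beside -0.90. Cxcl5, a neutrophil chemokine, was 110 CPM and 44.6 CPM (-1.31, -1.49 to -1.13), beside -0.96. Ttr, the transthyretin of the choroid plexus, was 371 CPM in the PS19 class and 39.3 CPM in the PZKO class (-3.24) and differed by as much in oligodendrocytes (-3.23) and microglia (-3.07). The other genes of this group were the noncoding Gm11867 (-1.57, beside -1.23 in oligodendrocytes) and Gm19951 (-1.43, beside -1.24). Tm4sf1, a membrane protein of the tetraspanin-like L6 family, was 29.7 and 8.67 CPM (-1.78, -2.18 to -1.39) with -0.19 in oligodendrocytes, -1.21 in the other astrocytes and -1.05 in microglia. Gh and Dqx1 completed the 10, but Gh rested on 103 UMIs of 3 PS19 nuclei and 5 nuclei held 91.6% of the PS19 UMIs of Dqx1.

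Among other reactive, fibrous and subpial genes the ratios ranged widely. Gfap was 1288 and 913 CPM, a log2 ratio of -0.50 (-0.54 to -0.45), with -1.10 in oligodendrocytes. Osmr was 192 and 169 CPM (-0.18, -0.29 to -0.07). Cxcl10 was 52.6 and 46.2 CPM (-0.19, -0.40 to 0.03), and Stat3 was at -0.03 (-0.13 to 0.08). Myoc, the subpial gene described above, went the other way, 44.8 CPM in PS19 and 76.4 CPM in PZKO, a log2 ratio of 0.77 (0.57 to 0.98). It had no UMI in 93.2% of PS19 and 88.2% of PZKO class nuclei. The matrix protein Tnc was also higher in PZKO, at 0.34 (0.11 to 0.58). C3 was 33.5 and 12.7 CPM (-1.39, -1.73 to -1.06) and Serpina3n 136 and 65.0 CPM (-1.06, -1.22 to -0.91). The 15 genes of transmitter uptake had a median of 0.07, the 13 endfoot genes -0.13 and the 18 genes of the TGF-beta and BMP list 0.04.

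Signs of RNA composition moved with the genotype. The 13 mitochondrially encoded genes were all below 0 in the PZKO class (median -0.73, oligodendrocytes -0.66), and 75 of 76 ribosomal protein genes were below 0 (median -0.58, oligodendrocytes -0.50), beside 6336 of 11443 over all genes. The median mitochondrial share of a class nucleus was 0.543% in PS19 and 0.364% in PZKO. Of the 10 nuclear noncoding RNAs, 8 were above 0 (5107 of 11443 over all genes) and 3 past 2-fold higher, with a median of 0.22 (0.0853 without nuclei holding neuronal transcripts), while their summed level was 113274 CPM in PS19 and 97477 CPM in PZKO, led by Malat1 at -0.24. The part of this shift in the lower levels of abundant messenger RNAs such as Apoe, Clu and Cst3 was not tested.

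The ratio between genotypes was nearer to 0 in the class than outside it for the reactive lists. The 8 pan-reactive genes had a median of -0.32 in the class and -1.50 in the other astrocytes, and 8 of 8 were higher on this scale in the class, as were 5726 of 9919 over all genes. For the 18 interferon-stimulated genes the medians were -0.09 and -0.91. Over all genes they were -0.04 and -0.09. PZKO nuclei were deeper and the cut counts raw UMIs, so it lies at a lower level per UMI in PZKO, and its part in these ratios was not tested. The value over all astrocytes, where no cut enters, was -0.51 for the pan-reactive and -0.25 for the interferon-stimulated genes. With the cut at 5 UMIs per 10000 the pan-reactive medians were -0.15 and -1.16, and after thinning 0.11 and -0.67, with 8 of 8 genes higher in the class each time (5661 of 9919 and 5139 of 9915 over all genes). The 16 interferon-stimulated genes measured in both sets had medians of 0.12 and -0.92 with the cut per 10000, and 0.43 and -0.56 after thinning. In Gfap the ratio was -0.50 in the class, -1.27 in the other astrocytes and -0.66 in all astrocytes. The difference between class and other astrocytes in these ratios cannot be tested with 1 library per genotype.

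**Figure D5:**
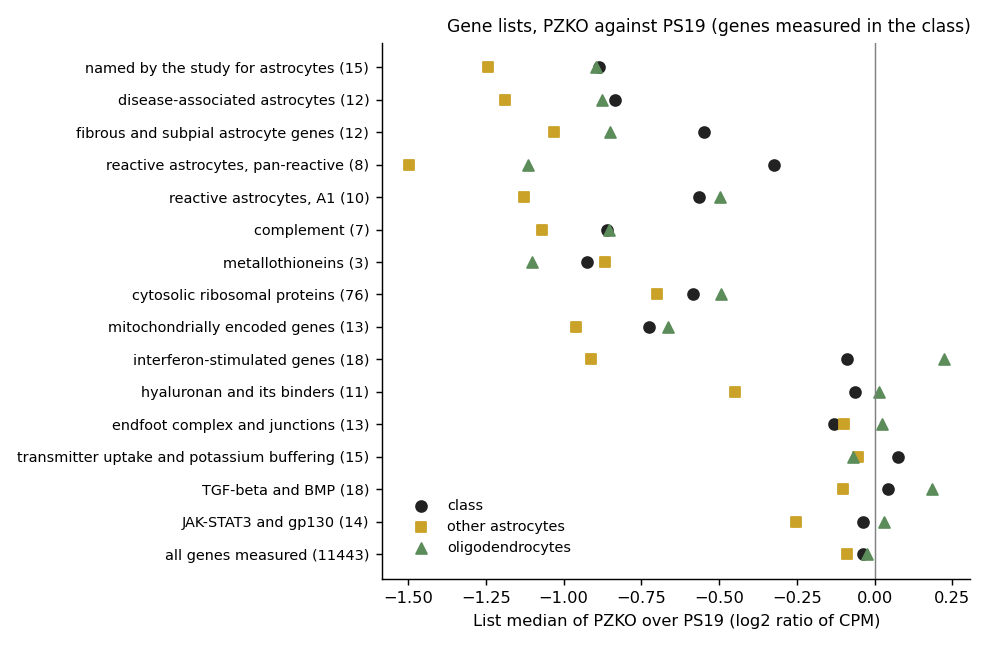
Median log2 ratio of CPM, PZKO over PS19 (x axis), of 15 gene lists and of all genes measured in the class (number of genes in parentheses), in the class, in the other astrocytes and in oligodendrocytes. The pan-reactive list is at -0.32 in the class and -1.50 in the other astrocytes, and the disease-associated list is at -0.83 in the class and -0.88 in oligodendrocytes.

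Many genes higher in the PZKO class rested on few nuclei. In 48 of the 254 (18.9%), 5 nuclei held over 50% of the PZKO class UMIs, against 76 of all 11443 genes (0.664%), and 77 of the 254 stayed past 2-fold without nuclei holding neuronal transcripts, counted with no UMI minimum there. The 10 highest were Ndst4, Aldh1a2, Zfp804a, Slc6a20a, Cntnap5b, Col19a1, Srrm4, Cntn5, Il1rapl2 and Tafa2. Ndst4, a heparan sulfate sulfotransferase, had 8 UMIs in the PS19 class and 166 in the PZKO class (3.81, 2.80 to 5.05), of which 5 nuclei held 60.8%. It had a UMI in 42.4% and 45.2% of thinned oligodendrocytes. Aldh1a2, the retinaldehyde dehydrogenase of meningeal fibroblasts, had 7 UMIs in PS19 and 123 in PZKO (3.57, 2.48 to 4.91), in 13 PZKO nuclei, 5 of which held 83.7%. The markers of vascular leptomeningeal cells summed to 20.3 CPM in the PS19 class and 35.8 CPM in the PZKO class, led by Col1a1 in PS19 and Slc6a13 in PZKO, with 0 of 5 markers at 0. Slc6a13, a GABA transporter of those cells, had 13 and 91 UMIs. Excitatory neuron markers summed to 262 and 299 CPM, led by Camk2a. Cntn5, a synaptic adhesion molecule, stood at 2.21 with all nuclei and at 1.16 without those holding neuronal transcripts, Ndst4 at 3.81 and 1.62, and Tafa2 at 2.17 and 0.91. After thinning, Ndst4 was at 0.70 and Tafa2 at -0.57. Aldh1a2 stood at 3.57 and 3.69, and Slc6a20a, an amino acid transporter, at 2.61 and 2.72. When the ranking was repeated without those nuclei, Aldh1a2, Slc6a20a, Sema3a, Hs6st3, Gm17167, Adamts12, Slc6a13, Zfp804b, Cntnap2 and Eya2 were highest. With all nuclei and the class drawn at 5 UMIs per 10000, Hs6st3 was at -0.39 and Cntnap2 at -0.37. The part of these other cells' markers in the calls was not tested.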

How the data were processed

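Nuclei of hippocampi pooled from 5 males per genotype gave 1 library each on the 10x Chromium platform. The authors deposited unnormalized UMI counts per gene and nucleus, aligned to mm10 with Cell Ranger (7.0.1 in the submitters' processing notes, 8.0.1 in the matrix header), and the corrections for free RNA and doublets that their methods describe are not part of these counts. The libraries hold 116488513 and 171167884 UMIs over 11469 and 10920 barcodes, and depth sets the counting intervals. Here nuclei were filtered and classed by the rule in the text. UMIs were summed per library and set of nuclei and given as CPM, with log2 ratios and exact conditional binomial 95% intervals (shares: exact Clopper-Pearson), which cover counting error only. Because each genotype has 1 library, no test was run. A gene was called past 2-fold at 100 UMIs or more. Doublets were kept, and an alternative removed the nuclei with the highest Scrublet scores, at 0.8% per 1000 nuclei (8.37% and 8.11%). Neighbours came from 2000 variable genes without those of the rule and 30 principal components. The genes named are those of the rule, the 12 highest and 12 lowest in the class, the 10 highest and 10 lowest in PZKO, ranked by the bound of the interval closest to 0, the same ranks without nuclei holding neuronal transcripts, and members of the lists. The members, lists and tests were chosen with earlier results of these data known. Alternatives varied the UMI cut, depth, doublets, filter on nuclei, gene minimum, scaling (edgeR TMM, DESeq2 size factors) and averaging. Gene positions come from GENCODE M21 (32235 of 32285 genes matched). Python 3.11.15, numpy 2.4.6, scipy 1.17.1, pandas 2.3.3, scanpy 1.11.5, scikit-learn 1.9.0, R 4.3.3, edgeR 4.0.16 and DESeq2 1.42.0 were used. A few members of the lists are not reported by name here.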

Additional observations from a re-analysis of the deposited data

Results flagged for a closer look

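The genes Zfp804b, Cemip, Slc6a20a and Lhfpl3 stood out among the genes named by rule or list, the only ones examined for this, because their log2 ratio had opposite signs in the sets compared, with neither counting interval reaching 0. These differences were not tested, since each genotype has 1 library. Zfp804b, a zinc finger gene, differed between PZKO and PS19 by 1.83 in the class and by -1.42 in the other astrocytes, and between class and other astrocytes by -1.94 in PS19 and 1.31 in PZKO. The PZKO value did not keep its sign, at -3.15 with the class drawn at 5 UMIs per 10000, -1.51 after thinning and -0.12 without doublets, so that class and other astrocytes then differed in the same direction in both libraries. Without nuclei holding neuronal transcripts the signs stayed opposite, at -2.87 in PS19 and 3.75 in PZKO. Its class UMIs were held by 18 PS19 and 50 PZKO nuclei, with 83.7% and 80.9% of them in 5 nuclei. Cemip, a hyaluronan-degrading protein, differed between PZKO and PS19 by 0.62 in the class and -1.60 in the other astrocytes, and between class and other astrocytes by -1.18 in PS19 and 1.04 in PZKO, with 89.0% and 59.7% of its class UMIs in 5 nuclei. After thinning, both signs between class and other astrocytes turned, to 0.23 in PS19 and -0.10 in PZKO, the ratio of PZKO to PS19 in the class was -0.37, and with 5 UMIs the PZKO value was -0.000344. Slc6a20a differed between class and other astrocytes by -2.52 in PS19 and 0.43 in PZKO, with 73.3% and 55.0% in 5 nuclei. After thinning the values were 0.0689 and 0.64, no longer of opposite sign, and with 2 UMIs the PZKO value was -0.0253. Lhfpl3, a marker of oligodendrocyte precursors found in 95 PS19 and 130 PZKO class nuclei, differed between PZKO and PS19 by 1.05 in the class and -0.29 in the other astrocytes. After thinning these values were 0.53 and 0.25, no longer of opposite sign.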

How the results depend on the processing

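No paired analysis was possible because each genotype has 1 library. The class share of astrocytes in PS19 and PZKO was 70.1% and 67.3% with 2 UMIs or more, 46.8% and 47.3% with 5, 56.0% and 48.7% with 5 per 10000, and 39.9% and 31.8% after thinning, which also brought the neighbour share of class nuclei to 56.7% and 49.6%. The 178 genes higher in the class became 45 after thinning and 362 with 20 UMIs as the gene minimum, and the 213 lower became 369 with the cut per 10000, 99 after thinning, 27 without nuclei holding neuronal transcripts, 133 with means over nuclei and 379 with 20 UMIs. The 254 genes higher in PZKO became 114 with the cut per 10000, 18 after thinning, 122 without doublets, 60 without nuclei holding neuronal transcripts and 629 with 20 UMIs, and the 75 lower became 23 after thinning, 61 without nuclei holding neuronal transcripts, 40 with the stricter filter on nuclei and 366 with 20 UMIs. TMM and DESeq2 scaling gave 284 and 285 higher and 62 lower each. Signs of single log2 ratios changed often after thinning, for 57 of 281 values of PZKO over PS19 and 71 of 507 of class over other astrocytes, and for 74 of 508 of the latter with means over nuclei and 76 of 508 without nuclei holding neuronal transcripts, but among ratios past 2-fold for 4, 5, 0 and 13. Those past 2-fold that changed sign follow. For class over other astrocytes in PS19 (log2), Adamts12 became 0.35 with 2 UMIs and 0.91 after thinning, Cemip 0.23 and Slc6a20a 0.0689 after thinning, and Lingo2 0.76 and Spock3 0.19 without nuclei holding neuronal transcripts, an alternative chosen after seeing the data. In PZKO that alternative gave Cntn5 1.07, Cntnap2 1.89, Cntnap5b 1.29, Epha3 0.45, Hs6st3 1.68, Il1rapl2 1.61, Lingo2 0.0840, Meg3 0.38, Nell1 0.19, Nwd2 0.73 and Snhg11 0.36. Also in PZKO, Cemip became -0.000344 with 5 UMIs and -0.10 after thinning, and Zfp804b -3.15 with the cut per 10000, -1.51 after thinning and -0.12 without doublets. For PZKO over PS19 in the class, Cntnap2 became -0.37, Hs6st3 -0.39 and Nell1 -0.78 with the cut per 10000, Dscaml1 -0.0572, Nell1 -1.11, Tafa2 -0.57 and mt-Nd6 0.11 after thinning, and Flt1, the one measured endothelial marker, -0.36 without doublets. The causes of these shifts were not tested. Counts of 3 or fewer UMIs, as for Zbp1 in the PZKO class, leave wide intervals.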
